A study of Mus musculus with 44 samples.

Results

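Translation initiation and elongation factors are the proteins that load ribosomes onto mRNA and move them along it. The genes described here are the 69 protein-coding genes whose symbol begins with Eif1, Eif2, Eif3, Eif4, Eif5, Eif6 or Eef, out of 55335 annotated rows and 21899 protein-coding rows of the count table. They were sorted by the complex or step they serve into 16 groups. In initiation, eIF4E binds the cap of an mRNA, the eIF4G scaffolds join it to the eIF4A helicases and to eIF3, and eIF2 brings the initiator tRNA. In elongation, eEF1A delivers each charged tRNA, the eEF1B subunits reload eEF1A with GTP, and eEF2 shifts the ribosome by one codon. The best known controls are phosphorylation of the alpha subunit of eIF2 by its kinases, capture of eIF4E by its binding proteins when mTORC1 is inactive, and phosphorylation of eEF2 by its kinase. Protein synthesis in hippocampal neurons is known to be needed for lasting memory.

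The RNA came from translating ribosome affinity purification (TRAP), in which a tagged ribosomal subunit is pulled down with the mRNA it carries. The mice were Emx1-NuTRAP males, in which Cre expressed from the Emx1 gene switches on the ribosome tag and a nuclear envelope tag. Emx1 marks mainly excitatory neurons of the hippocampus, and it also marks neural progenitors and, in the striatum, can be active in mature astrocytes. Early-life exercise (ELE) mice could run on a wheel in the cage from postnatal day 21 to 41, sedentary mice were housed in cages with no wheel, and all were killed the day after that period. In simultaneous INTACT and TRAP (SIT), nuclei and ribosomes came from 1 homogenate of both hippocampi, with 4 ELE and 4 sedentary libraries. In separate isolation, 1 hemisphere went to TRAP, giving 3 ELE and 3 sedentary libraries from left and 3 and 3 from right hippocampi, so that left and right libraries came from different mice.

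The 20 libraries held 45895097 to 65767802 counted fragments, and the 69 genes took 0.997% to 1.25% of them. The study itself compared 3 ELE and 2 sedentary SIT libraries, and those 5 are the SIT comparison here, with the fit over all 8 given beside it. The 3 libraries outside it stood apart. The sedentary pair NT7.2.3 and NT7.2.4 had 8.64% and 9.64% of counts from the mitochondrial genome, against 0.0704% to 0.523% in the other 18, and summed microglial marker levels of 175 and 185 CPM (counts scaled for library size) against 2.5 to 9.34. Their inhibitory neuron markers summed to 817 and 854 CPM against 40.5 to 108. In those 18 libraries excitatory neuron markers summed to 6610 to 10000 CPM, but astrocyte markers still reached 1840 to 5290 CPM and oligodendrocyte markers 2310 to 3830 CPM, so glial RNA was present throughout. Within the SIT comparison the choroid plexus markers summed to 129 to 576 CPM in ELE and 587 and 670 CPM in sedentary mice, and the excitatory neuron markers to 6900 to 7690 CPM and 6610 and 6700 CPM, so neither overlapped between the groups. Their part in the SIT results was not tested. In left libraries the choroid plexus markers summed to 25.9 to 1010 CPM in ELE and 31.2 to 1270 CPM in sedentary mice. In right libraries they summed to 17.3 to 43.5 CPM and 35.5 to 1160 CPM, and their part there was not tested either. No marker of the 8 lists examined was at 0 in every library of a group. The third library outside the SIT comparison, ELE mouse NT6.304, was the highest or lowest of all 20 libraries for 28.4% of the factor genes tested and for 23.6% of all genes.

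Eef1a1, Eef1a2 and Eef2 had the highest levels of these mRNAs. On a scale corrected for exonic length (TPM, which sums to the same total in every library), the median level over the 20 libraries was 2764 for Eef1a1, 1666 for Eef1a2 and 1324 for Eef2. Eef1a1 ranged from 2289 to 3416 TPM and Eef1a2 from 1178 to 1933 TPM, so the ranges of these eEF1A genes did not overlap. Eif1, whose product keeps the scanning ribosome from starting at the wrong codon, had the highest median among the initiation factors at 766 TPM. Eif5a, whose product relieves stalled ribosomes, followed at 603 TPM, and its range of 393 to 807 TPM overlapped that of Eif1, 432 to 936 TPM. Controls of translation were far less abundant. The eEF2 kinase gene Eef2k had a median of 21.2 TPM and the eIF2 alpha kinases ranged from 3.43 TPM for Eif2ak2 to 59.6 TPM for Eif2ak1. Eif4e1b and Eif4ebp3 had a median of 0 and at most 7 and 12 counts in any library, and were too low to be tested, which left 67 genes. TPM here divides by the length of all annotated exons, which understates genes such as Eef1d that have long alternative exons.

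**Figure D1:**
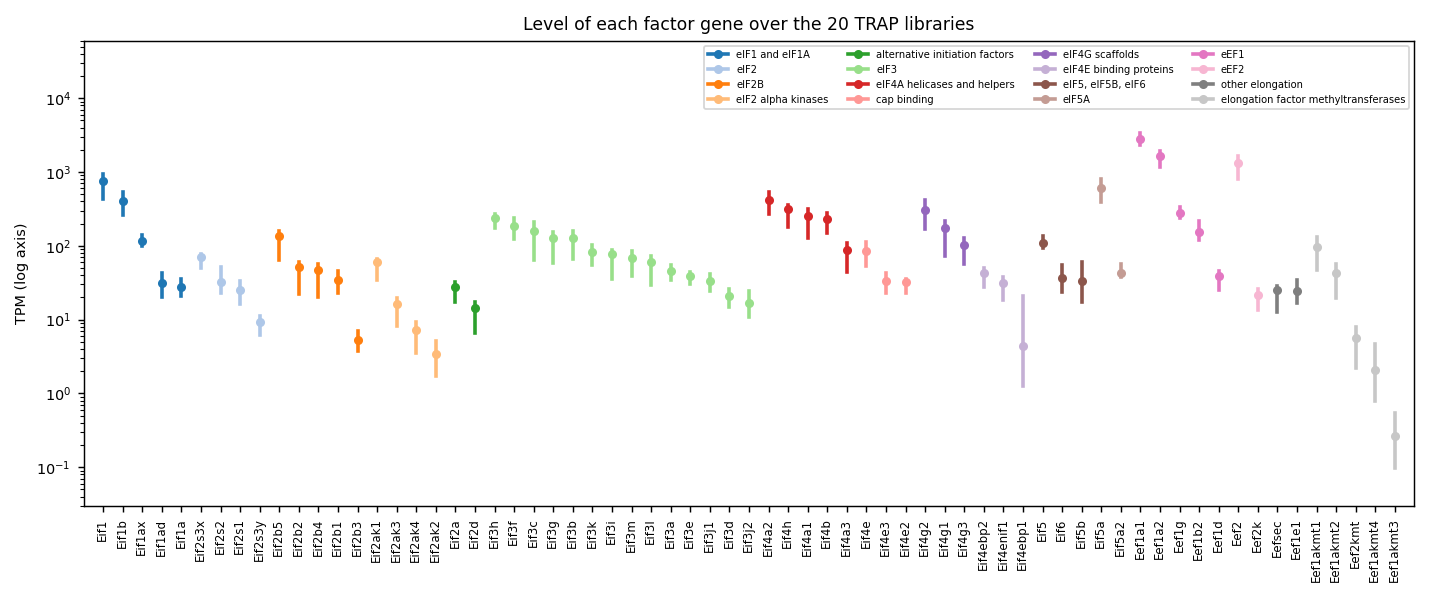
Level of the 67 factor genes with a median above 0, as TPM on a log axis, with the median of the 20 libraries as a point and the lowest and highest library above 0 as a line, coloured by factor group. Eef1a1, Eef1a2 and Eef2 sit at the top with medians from 1324 to 2764 TPM, and Eef1akmt3 is lowest at 0.262 TPM.

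Several factors are coded by 2 related genes, whose levels were compared within each library. Eef1a1, the form made in most tissues, stood at 1.33 to 2.09 times the TPM of Eef1a2, the form of neurons and muscle, in all 20 libraries. Eif4a1 was below its paralog Eif4a2 in every library, at 0.423 to 0.87 of its TPM. Eif5a exceeded Eif5a2 by 9.63 to 18.1 times. Eif2s3x on the X chromosome exceeded Eif2s3y on the Y chromosome, both coding for the gamma subunit of eIF2, by 5.65 to 9.49 times. Eif4ebp2, the main eIF4E binding protein of brain, exceeded Eif4ebp1 by 5.36 to 12.2 times in the separately isolated libraries, while over all 20 the ratio ran from 1.91 in ELE mouse NT6.304 to 32.9 in sedentary mouse NT7.2.4. The ELE and sedentary ranges of all 6 ratios examined overlapped in left and in right libraries. In the 5 SIT libraries compared they did not overlap for Eif1 over Eif1b, with 1.52 to 1.62 in ELE and 1.81 to 1.89 in sedentary mice, nor for Eif4ebp2 over Eif4ebp1, and with all 8 SIT libraries every one of the 6 overlapped. These ratios were not tested. Reads shared between such close copies, or with the 10 processed pseudogenes that carry these symbols, could have been assigned to either.

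The comparison asked whether ELE changes the ribosome-bound mRNA of these genes. In SIT libraries 5 of the 67 factor genes tested passed an unadjusted p under 0.05 in edgeR's quasi-likelihood test, and all 5 were lower in ELE mice. They were Eef1a2 and Eef1b2 of eEF1, Eif3f and Eif3k of eIF3, and Eif5b, the factor that joins the ribosomal subunits at the start codon. Over all 18238 genes tested, 2.86% were lower and 2.63% higher by this rule, and DESeq2 called 4 factor genes lower and 1 higher, against 2.17% and 2.50% of all genes by that tool. The lowest adjusted p of a factor gene was 0.905, also the lowest of any gene, so no call survived adjustment over the genes tested. Without the filter on low counts Eif5b had an edgeR adjusted p of 1.88e-07, the lowest of the factor genes, and 105 genes were under 0.05. The Eif5b groups overlapped through ELE mouse TG7.4.2, and DESeq2 did not call this gene. The log2 fold changes of the factor genes had a median of -0.06, with 23 above and 44 below 0, beside a median of 0.00 over all genes, of which 50.2% were above 0. The groups did not overlap for 4 factor genes higher and 15 lower in ELE, against 10.4% and 11.8% of all genes. In these bulk libraries fewer cells of a type, less RNA per cell and fewer ribosomes on an mRNA cannot be told apart.

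These calls depended on which libraries were used. The sedentary mice compared were NT6.305 and NT6.306, and the ELE mice were NT6.303, TG7.4.1 and TG7.4.2. Exercise therefore went partly with the mouse number series, whose part was not tested. With NT6 mice only, adding ELE mouse NT6.304, 42 of 67 factor genes lay above 0, where the median of all genes was -0.003. In that fit 1 was higher and none lower, against 4.03% and 3.27% of all genes. With all 8 SIT libraries 4 factor genes were higher (Eif2d, Eif4a1, Eif4e, Eif4g2) and 1 was lower (Eef1g), where 3.26% of all genes were higher and 5.81% lower. Only Eef1g then also passed the study's fold threshold of 1.31, as 7.70% of all genes did. The median was 0.08, with 39 above 0 against 50.7% of all genes, and the groups did not overlap for 2 genes higher and 0 lower, against 1.90% and 2.65%. With 1 of the 5 compared libraries left out at a time, 0 to 8 factor genes were lower. None was when the ELE library of mouse TG7.4.1 or the sedentary library of mouse NT6.305 was left out, against 2.17% and 0.719% of all genes, and 8 of 66 were without ELE mouse NT6.303, against 3.27%.

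After separate isolation 1 factor gene was lower in left ELE mice, Eef1akmt4, against 1.95% of all genes, and none was higher, against 1.99%. It also passed the fold threshold, as 2.07% of all genes did. The oligodendrocyte markers summed to 2840 to 3070 CPM in left ELE and 3140 to 3660 CPM in left sedentary mice and did not overlap, and their part in the left results was not tested. No factor gene passed in right libraries by edgeR's unadjusted p, where 1.21% of all genes were higher, 1.57% lower and 1.97% past the fold threshold, and DESeq2 called none of them either. In a fit over both hemispheres with hemisphere as a term, Eef2kmt was lower, against 2.83% of all genes, none was higher, against 2.48%, and none passed the fold threshold, against 2.01%. The lowest adjusted p of a factor gene was 0.96 in left, 1 in right and 0.924 in both hemispheres together. Log2 fold changes were above 0 for 36 factor genes in left, 29 in right and 34 in both, against 50.9%, 48.7% and 50.0% of all genes. The groups did not overlap for 6 factor genes higher and 4 lower in left libraries, against 5.38% and 5.43%. In right libraries there were 1 and 3, against 3.80% and 3.89%, and over both hemispheres 0 and 0, against 0.117% and 0.175%.

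The intervals bound how large a change these libraries could hold. The 95% interval of the fold change lay within 1.5-fold either way for 63 of 67 factor genes in left libraries, 61 in right and 65 in both together, against 54.2%, 56.2% and 62.1% of all genes, which include many of lower counts. In SIT it did so for 53 of 67, against 44.1%, and with all 8 SIT libraries for 43, against 34.9%.

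**Figure D2:**
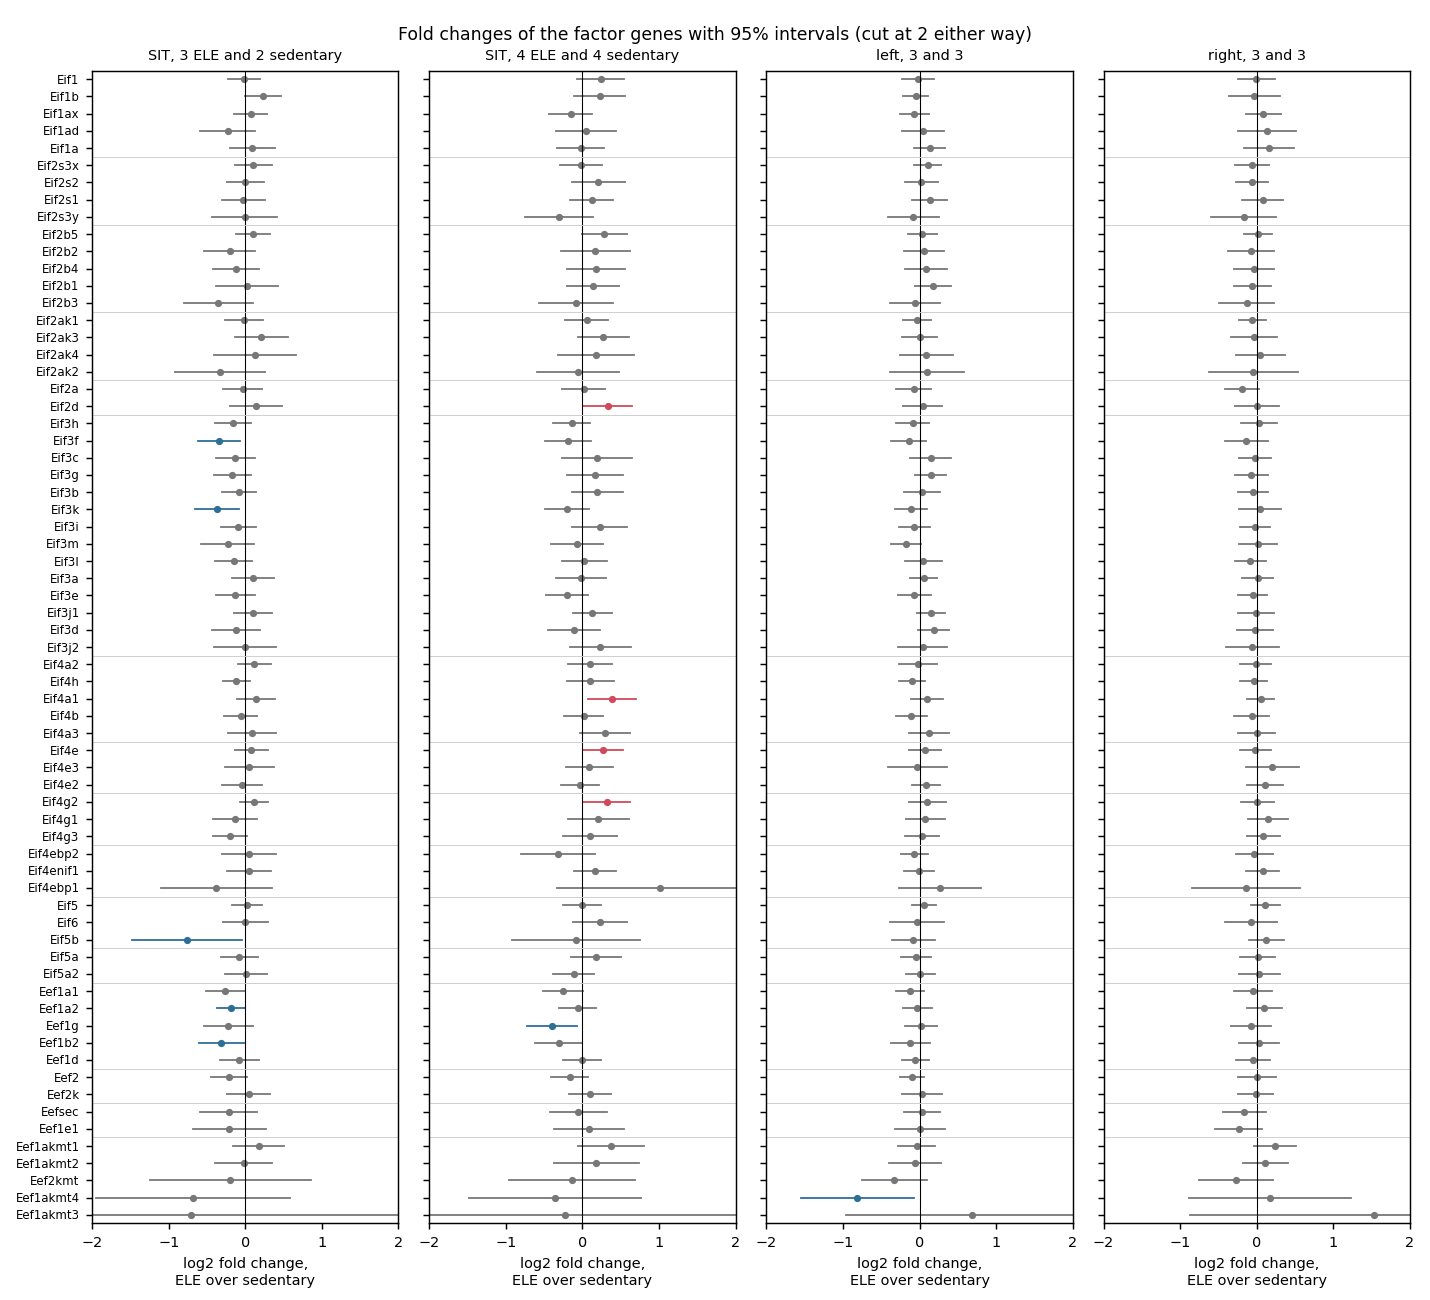
Log2 fold change of ELE over sedentary for the 67 factor genes tested (rows, grouped by complex), with 95% intervals as lines, in the SIT comparison of 3 ELE and 2 sedentary libraries, all 8 SIT libraries, left libraries and right libraries. Red genes were higher and blue genes lower at an unadjusted p under 0.05, 5 in the first panel, 5 in the second, 1 in the third and 0 in the fourth, and all others are grey.

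The eEF1 group held the 2 genes of highest level, Eef1a1 and Eef1a2. All 5 eEF1 genes had log2 fold changes under 0 in SIT, with a median of -0.22 and 2 past the test in the 5 libraries compared, beside 2.86% of all genes lower, and a median of -0.25 and 1 past the test in all 8, beside 5.81%. Over all genes 50.2% and 50.7% had values above 0. Eef1b2, a subunit that reloads eEF1A with GTP, was at 121.6, 94.99 and 115.4 CPM in ELE and 150.9 and 124.2 CPM in sedentary mice. The groups did not overlap, and Eef1b2 was lower in ELE by a log2 fold change of -0.31 ± 0.13 (SE, n = 3 and 2, edgeR adjusted p = 0.905). With all 8 libraries its log2 fold change was again -0.31, without passing the test, and in the 5 it did not pass without mouse TG7.4.1 (-0.21) or NT6.305 (-0.17). Eef1a2 was at 913.5, 860.6 and 981 CPM in ELE and 1067 and 1020 CPM in sedentary mice, which again did not overlap. Its log2 fold change was -0.18 ± 0.08 (SE, n = 3 and 2, edgeR adjusted p = 0.906) passing only with all 5 or without mouse TG7.4.2, and was -0.06 with all 8 libraries, where ELE mouse NT6.304 had the highest level at 1099 CPM. Eef1a1 itself was at 2241, 1664 and 1755 CPM in ELE and 2368 and 2148 CPM in sedentary mice, overlapping through ELE mouse NT6.303. It had a log2 fold change of -0.26 ± 0.12 (SE) that did not pass the test, and without that library of -0.40, which did.

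Eef1g, the scaffold subunit of eEF1B, was the eEF1 gene called with all 8 SIT libraries. It was at 231.4, 160.8, 184.2 and 177 CPM in the 4 ELE mice and 241.8, 206, 257.9 and 294 CPM in the 4 sedentary mice, the last 2 being the pair NT7.2. One ELE mouse, NT6.303, lay among the sedentary values. The log2 fold change was -0.40 ± 0.15 (SE, n = 4 and 4, edgeR adjusted p = 0.489), and it did not pass the test without mouse TG7.4.1 (-0.32) or without mouse NT7.2.4 (-0.31). The microglial and inhibitory neuron markers were high in that NT7.2 pair, and their part in this result was not tested. In the 5 compared libraries the Eef1g log2 fold change was -0.22 with a 95% interval from -0.54 to 0.10. Eef2, the translocase, was at 899.3 to 1137 CPM in the 3 ELE and 1105 and 1210 CPM in the 2 sedentary mice, with a log2 fold change of -0.22 ± 0.10 (SE) and a 95% interval from -0.45 to 0.01. Eef2k, whose product inactivates eEF2, had a log2 fold change of 0.04, with a 95% interval from -0.24 to 0.33.

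None of these elongation genes passed the test after separate isolation. In left libraries Eef1a1 was at 1672 to 1767 CPM in ELE and 1714 to 2053 CPM in the sedentary group. Its log2 fold change was -0.13, with a 95% interval from -0.31 to 0.06. In right libraries the ELE values of 1722 to 1816 CPM lay inside the sedentary spread of 1500 to 2066 CPM, and the log2 fold change was -0.05 with an interval from -0.30 to 0.20. Eef1a2 had log2 fold changes of -0.03 in left and 0.10 in right libraries, and Eef1b2 of -0.12 and 0.03. Eef2 had -0.10 in left, where its groups did not overlap, and 0.01 in right libraries. Of the 5 eEF1 genes 4 were below 0 in left and 3 in right libraries, with group medians of -0.06 and -0.05. The right sedentary library of mouse TG9.1.1 was the lowest of its group for Eef1a1 and Eef2. Without it, Eef1a1 passed the test in right libraries at a log2 fold change of -0.18 and in both hemispheres together at -0.15, and Eef1g passed in right libraries at -0.21. Without right sedentary mouse TG7.3.3, in contrast, the log2 fold changes in right libraries were 0.04 for Eef1a1, 0.15 for Eef1b2 and -0.01 for Eef1g, and none passed. In left libraries Eef1a1 passed without sedentary mouse TG9.1.2, at -0.19, and was at -0.07 without sedentary mouse TG7.3.4.

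The start of a gene was examined because mRNAs of elongation factors and ribosomal proteins are known for a run of pyrimidines at their 5′ end, through which mTORC1 controls their translation. Start windows from RefSeq (build GRCm38.p6) existed for 53 of the 69 genes. A run was counted where at least 5 letters of C or T in a row, the first a C, began within 5 bases of the annotated start on the transcribed strand. It was found in 13 of the 53 genes, 24.5%, and in 18.5% of all 27025 symbols with a window. The 5 genes lower in SIT are shown to compare their starts, each from 10 bases before the annotated start, with the run in capitals.
Eif3f, chr7:108934405-108934434 (+): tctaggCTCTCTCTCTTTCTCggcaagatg
Eif3k, chr7:28981869-28981898 (-): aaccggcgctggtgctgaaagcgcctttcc
Eif5b, chr1:37998000-37998029 (+): ctgggttcccacctggccggcggctctact
Eef1a2, chr2:181156996-181157025 (-): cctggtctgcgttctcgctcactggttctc
Eef1b2, chr1:63176821-63176850 (+): ctgcagttccgccggaagtagccgaggcct
Only Eif3f among these 5 held the run, which spans 15 letters, and of the Eef genes with a window Eef1a1 alone held one. In SIT the log2 fold changes had a median of -0.08 in the 13 genes with a run and -0.04 in the 40 without, and in left libraries 0.04 and 0.01. They were -0.05 and -0.003 in right libraries, -0.01 and 0.02 over both hemispheres, and 0.05 and 0.09 with all 8 SIT libraries. A start used in these neurons can differ from the annotated one, so no match says only that these letters are not in this window.

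eIF3, the large complex that holds the small ribosomal subunit ready for mRNA, had mostly negative fold changes in SIT. Of its 14 genes 12 had log2 fold changes below 0 and 2 were lower by the test, with a median of -0.13, beside 2.86% of all genes lower by that test. The groups did not overlap for 6 of 14, all with lower values in ELE, against 11.8% of all genes. Eif3f was at 146.6, 116.6 and 140.7 CPM in ELE and 186 and 156.7 CPM in sedentary mice. It was lower in ELE by a log2 fold change of -0.35 ± 0.12 (SE, n = 3 and 2, edgeR adjusted p = 0.905), that is at 0.786 of the sedentary level. Eif3k was at 54, 49.55 and 55.08 CPM in ELE and 76.36 and 60.1 CPM in sedentary mice. Its log2 fold change was -0.37 ± 0.13 (SE, n = 3 and 2, edgeR adjusted p = 0.905). Sedentary mouse NT6.305 was highest for both genes, and without it the log2 fold changes were -0.22 and -0.18. Neither passed the test without that library or without mouse TG7.4.1. With all 8 libraries they were -0.19 and -0.20, no eIF3 gene passed the test, and 7 of 14 lay below 0.

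No eIF3 gene passed the test after separate isolation. The group medians were 0.04 in left and -0.02 in right libraries, with 6 and 10 of 14 below 0, and every 95% interval lay within 1.5-fold in both. Eif3f was at 132.8 to 148 CPM in left ELE and 137.6 to 175.9 CPM in left sedentary mice, and at 137.3 to 141 CPM and 122.5 to 177 CPM in right mice. Its log2 fold changes were -0.14 in left and -0.13 in right libraries, and over both hemispheres -0.14 with an interval from -0.31 to 0.04. Without right sedentary mouse TG9.1.1 the value was -0.28 in right libraries and -0.20 over both hemispheres, and both passed the test. Without right sedentary mouse TG7.3.3 the right value was -0.02, and without left sedentary mouse TG7.3.4 the left value was -0.04. Eif3k had -0.11 in left and 0.05 in right libraries.

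Eif5b was the only factor gene past the study's thresholds in SIT by edgeR, an unadjusted p under 0.05 together with a change over 1.31-fold, which 3.65% of all genes passed. The study took its p from DESeq2, by which no factor gene passed these thresholds here. Eif5b values split into high and low libraries within groups. ELE mice had 56.4, 53.98 and 134.1 CPM, sedentary mice 143 and 133.7 CPM, and the 3 libraries outside the comparison 158.9 CPM in ELE and 62.37 and 90.98 CPM in the sedentary group. The log2 fold change was -0.76 ± 0.32 (SE, n = 3 and 2, edgeR adjusted p = 0.905), although the groups overlapped through ELE mouse TG7.4.2. Without TG7.4.2 the log2 fold change was -1.33, and without any other single library it lay between -0.81 and -0.54 and did not pass the test. With all 8 libraries it was -0.08 with a 95% interval from -0.92 to 0.75. In the 12 separately isolated libraries Eif5b stayed between 68.53 and 95.08 CPM, with log2 fold changes of -0.08 in left and 0.13 in right libraries. DESeq2 did not call Eif5b in SIT. The other members of its group did not follow it: Eif5, the GTPase activator of eIF2, had a log2 fold change of 0.02 and Eif6, which keeps the large subunit from joining early, of 0.00.

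**Figure D3:**
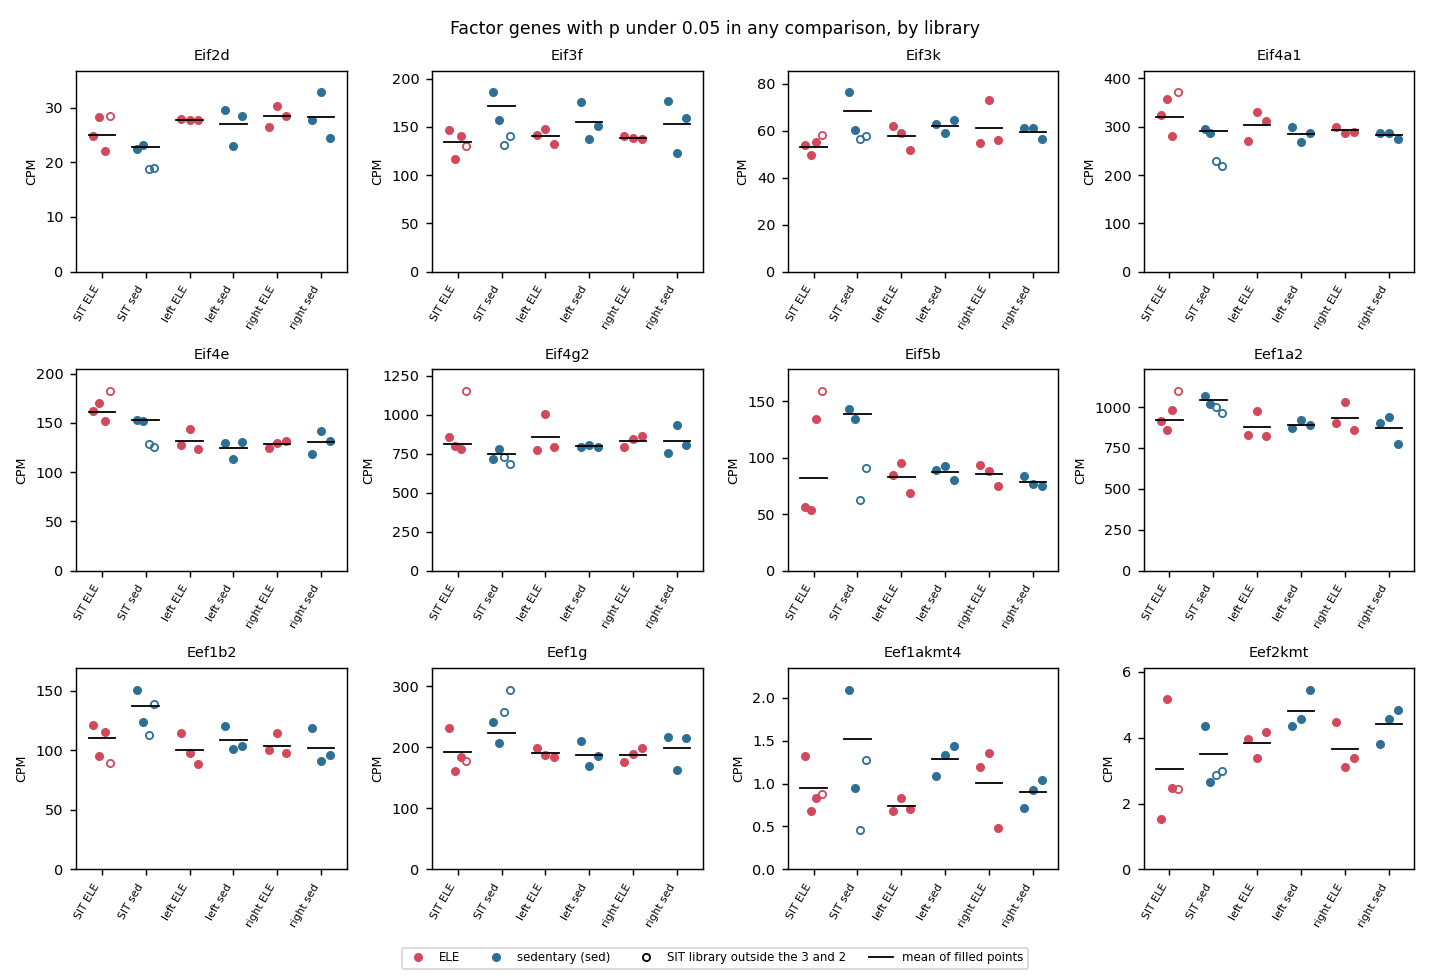
CPM of the 12 factor genes with an unadjusted p under 0.05 in SIT, all 8 SIT, left, right or both hemispheres, in each of the 20 libraries, with ELE in red, sedentary in blue, the 3 SIT libraries outside the main comparison as open circles and the mean of the filled circles as a bar. In Eif5b the SIT libraries spread from 53.98 to 158.9 CPM while the separately isolated ones stay between 68.53 and 95.08 CPM.

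Eif4a1, Eif4e, Eif4g2 and Eif2d were higher in ELE with all 8 SIT libraries. Eif4a1, a helicase that unwinds the 5′ end of mRNA, was at 323.7, 357.7, 280.1 and 371.3 CPM in ELE and 294.8, 286.9, 228.7 and 219.3 CPM in sedentary mice. It was higher in ELE with a log2 fold change of 0.38 ± 0.14 (SE, n = 4 and 4, edgeR adjusted p = 0.489), the lowest values being those of the NT7.2 pair. Eif4e, which binds the cap, was at 162.1, 169.7, 151.4 and 182.3 CPM in ELE and 152.7, 152.2, 128.1 and 125 CPM in sedentary ones, with a log2 fold change of 0.27 ± 0.12 (SE, n = 4 and 4, edgeR adjusted p = 0.546). Eif4g2, a scaffold that works without the cap-binding protein, was at 854.4, 796.7, 781.8 and 1151 CPM in ELE and 716.7, 778.8, 724.7 and 684.2 CPM in sedentary mice. These groups did not overlap, and the log2 fold change was 0.32 ± 0.14 (SE, n = 4 and 4, edgeR adjusted p = 0.545). An exact two-sided permutation test over the 8 mice gave p = 0.0286 for Eif4g2, the smallest it can give, and p = 0.0857 for each of Eif4a1, Eif4e and Eif2d, whose groups overlapped. Eif2d, which can deliver tRNA in place of eIF2, was at 22.09 to 28.4 CPM in ELE and 18.79 to 23.1 CPM in sedentary ones, with a log2 fold change of 0.33 ± 0.15 (SE, n = 4 and 4, edgeR adjusted p = 0.546). None of the 4 passed when NT7.2.3, NT7.2.4 or NT6.304 alone was left out, with 0.31 to 0.33 for Eif4a1, 0.21 to 0.23 for Eif4e, 0.17 to 0.31 for Eif4g2 and 0.27 to 0.28 for Eif2d. Leaving out other libraries lost some of them too. Without ELE mouse NT6.303 Eif4e, Eif4g2 and Eif2d did not pass (0.28, 0.34 and 0.35), without ELE mouse TG7.4.1 Eif4a1, Eif4e and Eif2d did not (0.35, 0.26 and 0.29), and without sedentary mouse NT6.305 Eif4g2 and Eif2d did not (0.31 and 0.36). In the 5 compared libraries their log2 fold changes were 0.14, 0.08, 0.12 and 0.14, in the order given, and none passed the test. Leaving out ELE mouse TG7.4.2 there gave 0.23 for Eif4a1, which passed, and leaving out ELE mouse TG7.4.1 gave 0.06, which did not.

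After separate isolation no gene coding for eIF4A, eIF4E or the eIF4G scaffolds passed the test. Eif4a1 had log2 fold changes of 0.09 in left and 0.05 in right libraries, Eif4e of 0.07 and -0.02, and Eif4g2 of 0.10 and 0.01. Eif4g1, the main scaffold, had 0.08 and 0.14, with ELE values of 322.7 to 378 CPM in left and 333.7 to 411.1 CPM in right libraries against sedentary values of 307.4 to 391.3 and 320 to 398.4 CPM. All 3 scaffold genes were above 0 in both hemispheres, with 95% intervals that took in 0, while in SIT Eif4g1 and Eif4g3 had -0.13 and -0.20 in the 5 compared libraries and 0.21 and 0.10 in all 8, and passed the test in neither. Eif4a2 had -0.03 and -0.01. Of the eIF4E binding proteins, Eif4ebp2 had -0.07 and -0.03, and Eif4ebp1, at only 2.075 to 4.216 CPM, had 0.26 and -0.14 with intervals wider than 1.5-fold.

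**Figure D4:**
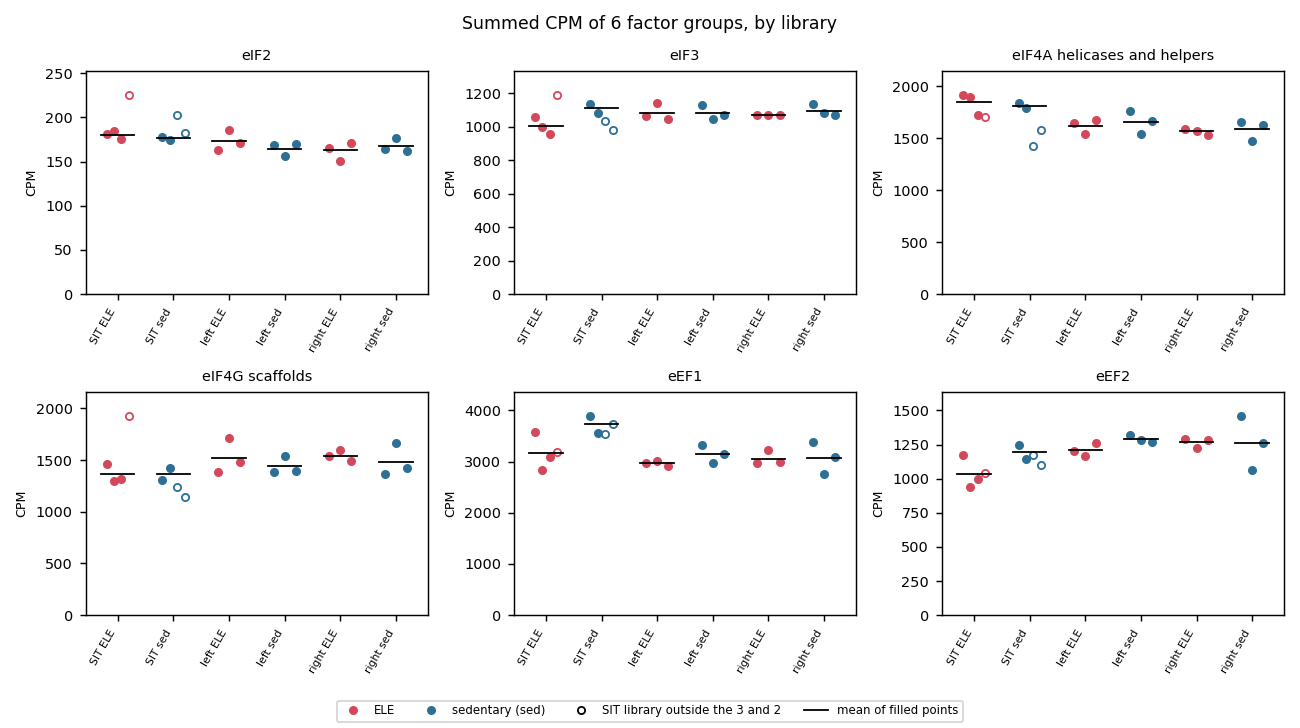
Summed CPM of the genes of 6 factor groups in each of the 20 libraries, with ELE in red, sedentary in blue, the 3 SIT libraries outside the main comparison as open circles and the mean of the filled circles as a bar. In the SIT comparison eEF1 sums to 2840 to 3574 CPM in ELE and 3559 and 3897 CPM in sedentary mice, which overlap through ELE mouse NT6.303. Left and right groups overlap for all 6 except eEF2 in left libraries, at 1167 to 1262 CPM in ELE and 1268 to 1323 CPM in sedentary mice.

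The genes of eIF2 and its exchange factor eIF2B, which set how much initiator tRNA is available, showed no call in SIT, left, right or both hemispheres. Eif2s1, which codes for the alpha subunit that stress kinases phosphorylate, had log2 fold changes of -0.02 in SIT, 0.13 in left and 0.08 in right libraries. Eif2s3x had 0.11, 0.10 and -0.06, and in left libraries its groups did not overlap, with 70.35 to 74.55 CPM in ELE and 63.86 to 70.27 CPM in sedentary mice. Eif2s3y had -0.01, -0.08 and -0.17. Eif2b5, the catalytic subunit of eIF2B, was at 87.01 to 95.05 CPM in SIT ELE and 83.7 and 86 CPM in sedentary ones, with a log2 fold change of 0.10 and a 95% interval from -0.12 to 0.32. It was 0.04 in left and 0.01 in right libraries. With all 8 SIT libraries it was 0.29 without passing the test and the groups did not overlap, the NT7.2 pair being lowest at 61.25 and 68.84 CPM. The kinases of eIF2 alpha were Eif2ak1 with -0.02, -0.03 and -0.06 in the 3 comparisons, Eif2ak2 with -0.33, 0.10 and -0.04, Eif2ak3 with 0.21, 0.00 and -0.04, and Eif2ak4 with 0.13, 0.09 and 0.05. Eif1 had -0.02, -0.02 and 0.00, and Eif5a had -0.08, -0.05 and 0.01.

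The enzymes that methylate elongation factors held the calls made after separate isolation, all in genes of few counts. Eef1akmt4, a lysine methyltransferase of eEF1A, was at 0.675, 0.827 and 0.699 CPM in left ELE and 1.09, 1.33 and 1.44 CPM in left sedentary mice, from 40 to 44 and 63 to 83 counts. The groups did not overlap, and the log2 fold change was -0.81 ± 0.32 (SE, n = 3 and 3, edgeR adjusted p = 0.96). The exact permutation test gave p = 0.1, the smallest it can give with 3 and 3 mice. In right libraries Eef1akmt4 had a log2 fold change of 0.18 with an interval from -0.88 to 1.23, and the difference of right minus left was 0.99 with an interval from -0.21 to 2.19. DESeq2 did not call it in left libraries, and it did not pass without TG7.3.2, TG9.2.2, TG9.1.2 or TG9.2.4, at -0.79 to -0.72. With mice blocked by the start of their number it did not pass in left libraries either. Of its exonic bases 30.7% are shared with a readthrough gene of the same strand, so its counts may be incomplete. Eef2kmt, which methylates eEF2, was at 3.12 to 4.47 CPM in the 6 ELE and 3.8 to 5.46 CPM in the 6 sedentary mice of both hemispheres, with groups that did not overlap in left and overlapped in right libraries. Its log2 fold change was -0.30 ± 0.13 (SE, n = 6 and 6, edgeR adjusted p = 0.924), with -0.33 in left and -0.27 in right libraries. The exact two-sided permutation test over these 12 mice gave p = 0.026. By edgeR it passed without TG9.2.2, TG7.3.1, TG7.3.3 or TG7.3.4, and did not without each of the other 8 mice, where it lay between -0.31 and -0.25. In SIT it was -0.19 with an interval from -1.25 to 0.86.

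The effect of ELE was also compared between hemispheres by an interaction term. None of the 67 factor genes passed by edgeR's unadjusted p, where 1.08% of all genes were higher in right than in left libraries, 1.52% lower and 2.20% past the fold threshold, and DESeq2 called none of them. The 95% interval of the difference lay within 1.5-fold for 57 of 67 factor genes, against 39.3% of all genes. The difference was above 0 for 34 of 67, against 47.8%. All 4 eIF2 genes, 5 eIF2B genes and 4 eIF2 alpha kinases had values below 0, with medians of -0.09, -0.12 and -0.04 beside -0.01 over all genes, and all 5 genes of eIF1 and eIF1A and all 5 methyltransferases had values above 0, with medians of 0.03 and 0.28. The 2 alternative initiation factors and the 2 other elongation genes were also below 0, and the 2 eIF5A genes above. These groups were picked after their values were seen, and their signs were not tested.

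Other genes of the pathway were examined by the same tests. Of 39 listed genes, 38 had 1 protein-coding row, and the symbol Ddit3 had 2 and was left out. In SIT, 1 of 38 was higher and 1 was lower, against 2.63% and 2.86% of all genes. Ppp1r15b, which brings a phosphatase to eIF2 alpha, was at 62.62, 50.12 and 53.77 CPM in ELE and 40.45 and 46.47 CPM in sedentary ones, with a log2 fold change of 0.35 ± 0.13 (SE, n = 3 and 2, edgeR adjusted p = 0.905). It did not pass with all 8 SIT libraries (0.25), in left (-0.06) or in right libraries (-0.03). Pabpc1, the cytoplasmic poly(A)-binding protein, was at 211.2, 147.2 and 147.3 CPM in ELE and 220.1 and 208.5 CPM in sedentary mice, with -0.35 ± 0.15 (SE, n = 3 and 2, edgeR adjusted p = 0.906), and had 0.06 in left and -0.05 in right libraries without passing. In left libraries 1 of 37 was higher and none lower, against 1.99% and 1.95%. This was Chac1, a target of the stress factor ATF4, at 5.83, 6.04 and 3.79 CPM in ELE and 2.76, 2.48 and 3.95 CPM in sedentary mice, with overlapping groups and a log2 fold change of 0.77 ± 0.26 (SE, n = 3 and 3, edgeR adjusted p = 0.96). Elsewhere Chac1 did not pass. It had -0.58 in SIT, where ELE values of 2.628 to 4.734 CPM lay below the sedentary 5.079 and 5.441 CPM without overlap, 0.76 with all 8 SIT libraries and -0.14 in right libraries. In right libraries none of 37 passed by edgeR's unadjusted p, where 1.21% and 1.57% of all genes did. By the interaction of ELE with hemisphere none of 38 was higher in right than in left libraries and 1 was lower, Trib3, which was at 0 CPM in all right ELE libraries and at no more than 0.263 CPM in any of the 12, against 1.08% and 1.52% of all genes. The 8 genes of mTORC1 and its inputs had medians of 0.08 in SIT, 0.04 in left and 0.06 in right libraries, with no call. The genes that follow are named after their values were seen. With all 8 SIT libraries 1 of 37 was higher and 2 were lower, against 3.26% and 5.81% of all genes. Rheb, the GTPase that activates mTORC1, was higher with all 8 SIT libraries, with 194.9 to 311.9 CPM in ELE and 134.2 to 184.9 CPM in sedentary mice and a log2 fold change of 0.58 ± 0.17 (SE, n = 4 and 4, edgeR adjusted p = 0.432). Mouse NT6.304 held the highest of those values and the NT7.2 pair the lowest. The lower ones were Deptor, an inhibitor of mTORC1, at -0.69 ± 0.23 and Pabpc1 at -0.60 ± 0.19 (SE, n = 4 and 4, edgeR adjusted p = 0.46 for each), and both were highest in the NT7.2 pair. Over both hemispheres 3 of 38 were higher and none lower, against 2.48% and 2.83%. Rheb was 0.14 ± 0.06 (SE, n = 6 and 6, edgeR adjusted p = 0.924), Pabpc4, another cytoplasmic poly(A)-binding protein, was 0.19 ± 0.09 (SE, n = 6 and 6, edgeR adjusted p = 0.924) and Etf1, the factor that ends translation at stop codons, was 0.14 ± 0.05 (SE, n = 6 and 6, edgeR adjusted p = 0.924).

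The stress-response genes stood out in 1 library. Atf4, the transcription factor whose translation rises when eIF2 alpha is phosphorylated, was at 94.2 to 106.3 CPM in the 3 compared SIT ELE mice and 99.16 and 102.5 CPM in sedentary mice. Mouse NT6.304, outside that comparison, had 287.2 CPM of Atf4 and 12.43 CPM of Eif4ebp1, whose other 19 values ran from 1.092 to 4.216 CPM. Right sedentary mouse TG9.1.1 had the next highest values of both, with 147.4 CPM of Atf4 and 4.216 CPM of Eif4ebp1.

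**Figure D5:**
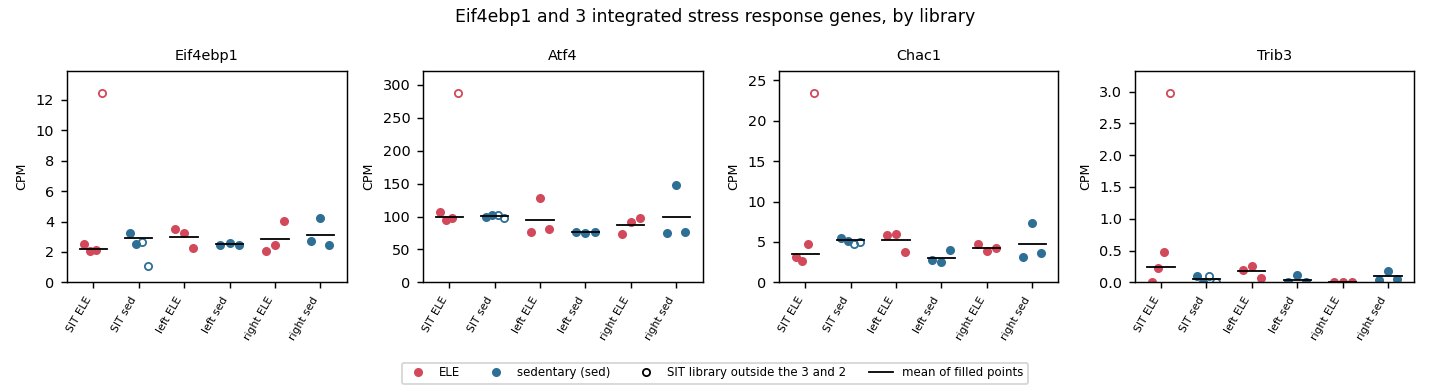
CPM of Eif4ebp1, Atf4, Chac1 and Trib3 in each of the 20 libraries, with ELE in red, sedentary in blue, the 3 SIT libraries outside the main comparison as open circles and the mean of the filled circles as a bar. The open ELE circle, mouse NT6.304, is the highest value in all 4 panels, with Atf4 at 287.2 CPM and Chac1 at 23.39 CPM.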

How the data were processed

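TRAP libraries of 20 mice were analysed from the deposited gene counts. Per the labels and the study's methods, the authors aligned reads with STAR 2.7.3a, removed duplicates with Picard 1.87 and counted fragments over exons by gene with strand, with no normalization. Symbols, types and lengths came from GENCODE, by which 54587 of 55335 row names matched with version and 55154 without. Column names are mouse numbers, placed in labelled groups through the study's list of mice. The 5 SIT libraries compared were recognised by mean normalized counts of 633 of 633 listed genes. Genes passing edgeR's filterByExpr were fitted with TMM scaling and the quasi-likelihood test (edgeR 4.0.16, R 4.3.3), with only the groups compared and Benjamini-Hochberg adjustment over all genes. The study's call rule was a DESeq2 unadjusted p under 0.05 with over 1.31-fold change, and here edgeR's p was put to the same thresholds. CPM used 1 TMM scaling of all 20 libraries. DESeq2 1.42.0 and other settings were alternatives. The steps were tested on simulated data. Single genes were also compared by two-sided exact permutation tests of log2(CPM + 0.5). Named genes were those with p under 0.05, the most abundant of each group and a list of 18. The members and lists were chosen with earlier results of these data known. A table of 24 wild-type columns was not used. No replicate pair agreed within sampling noise. The 95% intervals come from the quasi-likelihood fits, which include the spread between mice. Depths of 45895097 or more gave the rarest gene tested, Eef1akmt3, 0 to 19 counts a library.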

Additional observations from a re-analysis of the deposited data

Results flagged for a closer look

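In groups of 4 SIT libraries, the gap of the highest or lowest library to its nearest neighbour was compared with the group's range for 35 named genes and 16 group sums, 102 groups in all, of which 3 exceeded the 95% limit. Chance flags about 1 in 20 groups.

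Eif4ebp1, a binding protein that holds eIF4E away from the cap, stood at 12.43 CPM (640 counts) in ELE mouse NT6.304, against 2.507 CPM or less in the other 3 ELE mice and 1.092 to 4.216 CPM in all other 16 libraries. Genes of the integrated stress response were high in the same library. Atf4 was at 287.2 CPM against 147.4 CPM in the next highest of the 20 libraries, Chac1 at 23.39 against 7.323 CPM, Trib3 at 2.972 against 0.4811 CPM and Ppp1r15a at 35.95 against 26.59 CPM. The study left this library out of its comparison, and the part of these genes in the fold changes with all 8 libraries was not tested.

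Eef1a1 was at 2241 CPM in ELE mouse NT6.303, against 1755 CPM in the nearest of the other 3 ELE mice, and so lay within the sedentary range. Eif2a, an initiation factor that can act apart from eIF2, was at 38.55 CPM in sedentary mouse NT7.2.3, against 48.95 CPM in the nearest of the other 3 sedentary mice. None of the 35 named factor genes differed between hemispheres in its response to ELE by an edgeR p under 0.05.

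Of 38 other genes of the pathway, Trib3 did, with an edgeR adjusted p of 1. It was at 0.07 to 0.263 CPM in left ELE, 0 to 0.111 CPM in left sedentary, 0 CPM in all 3 right ELE and 0.0437 to 0.182 CPM in right sedentary libraries. Because a whole group was at 0, the fitted log2 difference of right minus left, -7.63, depends on the prior count and gives no size.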

How the results depend on the processing

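Counts of factor genes passing p under 0.05 moved with the libraries and tools. In SIT, where 0 were higher and 5 lower and 1 passed the fold rule, DESeq2 gave 1 higher, 4 lower (against 2.50% and 2.17% of all genes) and 0 by the fold rule, no filter on low counts 1 higher and 7 lower (2.88% and 2.71%, with Eif5b at an edgeR adjusted p of 1.88e-07 and 105 genes under 0.05), a single fit of all 20 libraries, which takes in all 8 SIT libraries, 8 higher and 4 lower (7.33% and 9.78%), all 8 SIT libraries 4 higher and 1 lower (3.26% and 5.81%), NT6 mice alone 1 higher and 0 lower (4.03% and 3.27%), and 4 ELE and 2 sedentary libraries, added after seeing the data, 0 higher, 3 lower (1.55% and 1.81%) and 0 by the fold rule. Leaving out 1 library gave 0 to 3 higher, 0 to 8 lower and 0 to 3 by the fold rule, while 1.17% to 5.45% of all genes were higher and 0.719% to 5.69% lower, and among all 8 SIT libraries, also added later, 0 to 5 higher, 0 to 3 lower and 0 to 3 by the fold rule, with 1.30% to 4.75% and 3.16% to 7.34% of all genes. In left libraries the 1 lower gene, also the 1 by the fold rule, became 0 and 0 with DESeq2, with no filter and with a single fit (1.43%, 1.73% and 0.637% of all genes lower), and leaving out 1 library gave 0 to 1 higher, 0 to 2 lower and 0 to 1 by the fold rule (0.868% to 3.94% and 0.96% to 3.80% of all genes higher and lower). In right libraries leaving out 1 gave 0 to 2 higher and 0 to 4 lower, in both hemispheres 0 to 2 higher and 0 to 3 lower, and for the interaction 0 to 1 higher, 0 to 1 lower and 0 to 1 by the fold rule. The most calls in right libraries and in both hemispheres came without TG9.1.1, where 2.44% and 2.93% of all genes were higher and lower in right and 3.95% and 3.62% in both, and for the interaction the shares ran from 0.787% to 1.75% and from 1.17% to 2.42%. Over both hemispheres no filter gave 1 higher, 0 lower (2.45% and 3.04% of all genes) and 1 by the fold rule, and a single fit 0 lower (1.41%). Of 2870 named-gene values under alternatives, none reversed a call, 74 lost and 48 gained one, and 254 values without a call changed sign. The cause was not tested.

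Replicate numbers in the labels are not carried by the columns. A replicate block by the start of the mouse number, added after seeing the data, gave 0 lower and 0 by the fold rule in left libraries, where 2.18% of all genes were lower, and 2 lower over both hemispheres, where 3.56% were. Deviations from the group means of mice sharing that start correlated by -0.09 to 0.21. With 3 mice a group, these values cannot decide whether such mice are paired, for example by litter. Depth and the 2 to 6 mice a group limit these values through the intervals given beside them.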

Other observations

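Ribosomal protein mRNAs were summed over 79 genes whose symbols are Rpl or Rps directly followed by a number, which leaves out Rpsa and the Rplp genes. This set was chosen after values were seen. In the SIT comparison they summed to 11730, 9515 and 10650 CPM in ELE and to 13680 and 12220 CPM in sedentary mice, so the groups did not overlap. The 3 other SIT libraries were at 10630 CPM in ELE mouse NT6.304 and 11290 and 12510 CPM in the NT7.2 sedentary pair. The separately isolated libraries were at 8772 to 10540 CPM with ELE and sedentary values intermixed. No test was made of these sums.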
